A study of Homo sapiens with 20 samples.

Results

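The clustered protocadherin genes lie in 3 arrays on chromosome 5, and the open chromatin over them was compared between SW872 cells expressing TAZ-CAMTA1, YAP-TFE3, the proteins these fusions derive from, or the empty vector. SW872 is an established human liposarcoma cell line. Peaks were taken from the 7 ATAC-seq peak lists (1 per vector) if they overlapped chr5:140160000-140900000 in hg19, a span of 740 kb. Of 1407450 peaks in the 7 lists, 211 did so, and they merged into 51 sites of 372005 over the genome. The alpha array was taken as chr5:140160000-140400000, the beta array as chr5:140425000-140640000 and the gamma array as chr5:140705000-140900000.

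ATAC-seq marks open DNA as the places where a transposase can insert. The 20 libraries came from pooled cell lines that had been stably transduced with a retroviral vector and selected with G418. The vector was empty (EV) or carried TAZ4SA or YAP5SA (activated mutants of full-length TAZ and YAP), full-length CAMTA1 or TFE3, or 1 of the fusions, TAZ-CAMTA1 or YAP-TFE3. TFE3 had 2 libraries and every other vector 3. The third EV library is titled a redo, and the titles of the YAP-TFE3 libraries name YAP5SA as the YAP part. With 1 deposited list per vector there was no replicate error and no test, and a difference between lists cannot be set against the spread between libraries. Read depth is unknown, and the lists hold no expression values, so neither the level of each construct nor the identity of the cells was checked.

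Clustered protocadherins are cell-surface adhesion proteins of the cadherin family, best known in neurons, where different cells express different combinations of them and so can tell self from non-self. In the alpha and gamma arrays each variable exon has its own promoter and is spliced to constant exons at the 3′ end of the array, while the beta genes are single-exon genes. Choice among the variable promoters involves CTCF, cohesin and looping to distal enhancers, and the C-type genes at the 3′ end of the alpha and gamma arrays are regulated differently from the rest. In the RefSeq annotation of GRCh38.p14 the alpha array runs from PCDHA1 to PCDHAC2, the beta array from PCDHB1 to PCDHB15 and the gamma array from PCDHGA1 to PCDHGC5. That annotation lists 15, 16 and 22 protein-coding genes in the 3 arrays. The genes SLC25A2 and TAF7 lie between the beta and gamma arrays. The peak lists are in hg19 and the annotation is in another build, so peaks are described by position and array, and none was assigned to a gene, a promoter or an enhancer.

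The variable promoters carry short sequences that members of an array share, and examples are shown here because these promoters are what the arrays are made of. RefSeq promoter sequences were at hand for 47 of the 53 genes, and the entries for PCDHA3, PCDHA13, PCDHB6, PCDHB11, PCDHGA12 and PCDHGC5 were missing. In the 250 bases before the gene start, the run of 10 letters shared by the largest number of genes of each array, read on both strands, was TGATGTCGCT in 8 of 13 alpha genes, GGTGGCGCTG in 11 of 14 beta genes and GCGCCGCTGT in 9 of 20 gamma genes. All 3 runs contain the letters CGCT. Over all 35116 promoter entries they were found in 0.0313%, 0.225% and 0.114%. Each run was absent from the entries of the other arrays. The runs were chosen for being shared, so these shares are a description. The alpha run began 44 to 87 bases before the gene start, the beta run 16 to 84 and the gamma run 44 to 99. In the stretches below, each of 60 bases and read 5′ to 3′, capitals mark the shared run.
PCDHA1 (GRCh38.p14, chr5:140786071-140786130, plus strand): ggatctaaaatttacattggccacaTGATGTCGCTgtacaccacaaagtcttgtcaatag
PCDHA2 (GRCh38.p14, chr5:140794766-140794825, plus strand): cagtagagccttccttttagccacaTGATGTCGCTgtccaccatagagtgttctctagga
PCDHA4 (GRCh38.p14, chr5:140806964-140807023, plus strand): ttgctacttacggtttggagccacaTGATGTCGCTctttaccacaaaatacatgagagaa
PCDHB2 (GRCh38.p14, chr5:141094530-141094589, plus strand): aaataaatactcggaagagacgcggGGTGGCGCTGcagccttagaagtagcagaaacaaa
PCDHB3 (GRCh38.p14, chr5:141100379-141100438, plus strand): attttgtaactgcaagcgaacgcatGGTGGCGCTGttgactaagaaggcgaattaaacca
PCDHB4 (GRCh38.p14, chr5:141121709-141121768, plus strand): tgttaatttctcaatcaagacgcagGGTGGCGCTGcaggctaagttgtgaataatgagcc
PCDHGA1 (GRCh38.p14, chr5:141330390-141330449, plus strand): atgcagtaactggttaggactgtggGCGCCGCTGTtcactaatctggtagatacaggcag
PCDHGB1 (GRCh38.p14, chr5:141350012-141350071, plus strand): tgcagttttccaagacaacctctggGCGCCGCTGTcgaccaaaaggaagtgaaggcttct
PCDHGA7 (GRCh38.p14, chr5:141382636-141382695, plus strand): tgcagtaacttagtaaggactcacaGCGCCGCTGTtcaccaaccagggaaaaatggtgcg

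The C-type genes differed from the other members in base composition. Over the same 250 bases the median GC content was 61.2% in 4 C-type genes, with a range of 57.6% to 63.2%, and 36% in the other 43 genes, with a range of 30% to 48.8%. The median over all promoter entries was 58%. None of the 43 reached the lowest of the C-type genes. The 250 bases before the start of PCDHGC3, the first C-type gene of the gamma array, show the GC-rich kind in contrast to the stretches above.
PCDHGC3 (GRCh38.p14, chr5:141475716-141475965, plus strand): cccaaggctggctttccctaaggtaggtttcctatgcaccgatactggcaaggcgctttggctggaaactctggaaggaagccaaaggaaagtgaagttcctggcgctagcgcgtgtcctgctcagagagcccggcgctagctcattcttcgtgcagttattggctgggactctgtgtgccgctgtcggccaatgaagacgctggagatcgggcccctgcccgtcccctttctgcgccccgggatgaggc

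Little of the span was open in any list. The EV list had 25 peaks in the span, the TAZ4SA list 28, the YAP5SA list 31, the CAMTA1 list 40, the TFE3 list 26, the TAZ-CAMTA1 list 32 and the YAP-TFE3 list 29. These peaks covered 1.33% of the span in the TAZ4SA list, the least, and 2.51% in the CAMTA1 list, the most. The percentage of the genome covered was not computed, so only peak counts are set against the genome here. Per megabase, the span held 33.8 peaks in the EV list and 54.1 in the CAMTA1 list, with the others between, while the 740 kb just below it held 90.5 to 150 and the 740 kb just above it 119 to 191. The average over the genome was 49.2 to 76.5 peaks per megabase. In every list the span was therefore sparser than both neighbours and than the genome, and among 239 windows of 740 kb on chromosome 5 between 25.1% and 34.7% held fewer peaks. In the span CAMTA1 had the most peaks among all deposited ones and EV the fewest. But when only summits with a −log10 p of 5 or more were kept, CAMTA1 and TAZ4SA each had 16, EV 11 and TFE3 9. The whole lists differed in size, from 152702 peaks in TAZ4SA to 236893 in TAZ-CAMTA1, with 171102 in EV and 223651 in CAMTA1. As a share of the whole list, the peaks in the span were highest in TAZ4SA, then CAMTA1 and TFE3. EV came next, above TAZ-CAMTA1, YAP5SA and YAP-TFE3, and the 95% intervals of the 7 shares all overlapped. Equal numbers of peaks per list, by −log10 p or by area, left YAP5SA and both fusions with fewer peaks than EV. CAMTA1, TAZ4SA and TFE3 still had more than EV.

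**Figure D1:**
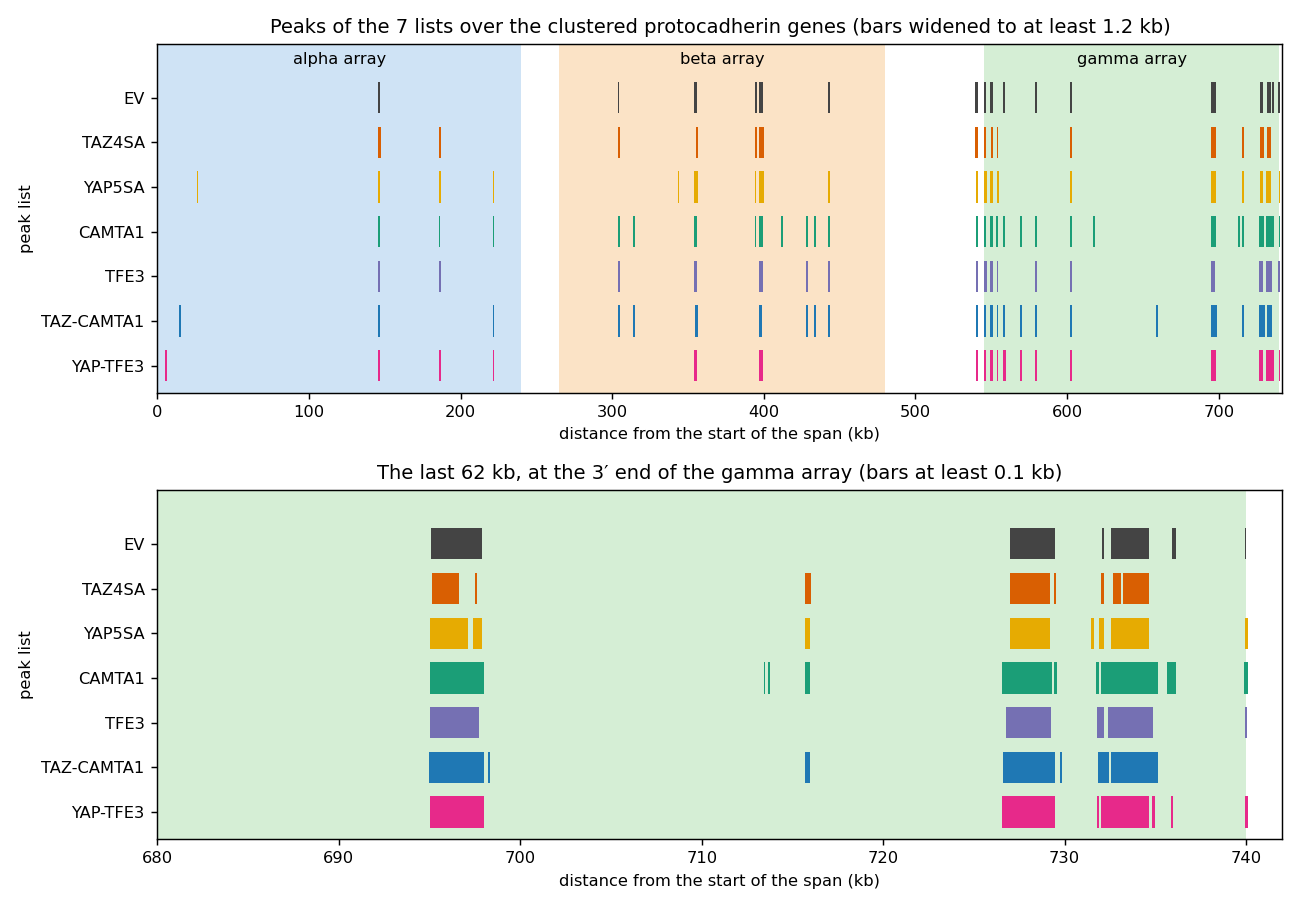
Peaks of each list (rows) along the span, as distance from its start in kb, with the 3 arrays shaded. The upper panel shows all 740 kb with bars widened to at least 1.2 kb, and the lower panel the last stretch of the gamma array, where the 3 broad sites stand in all 7 lists.

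The peaks were spread unevenly over the arrays. The alpha array held 7 sites over 240 kb, the beta array 18 over 215 kb and the gamma array 25 over 195 kb. This is 2.92, 8.37 and 12.8 sites per 100 kb. Per 740 kb, the span held 51 sites, against an average of 88.8 over the genome and 163 on chromosome 5. The 740 kb just below the span held 126 and the 740 kb just above it 165. The gamma array was the richest of the 3 arrays only, and not rich in sites beside these values. The 25 kb between the alpha and beta arrays held none, and the 65 kb between the beta and gamma arrays held 1. The EV list had 1 peak in the alpha array, 9 in the beta array and 13 in the gamma array, and the CAMTA1 list 3, 15 and 21. The YAP-TFE3 list had 5 peaks in the alpha array, 6 in the beta array, the fewest of any list there, and 17 in the gamma array. The longest stretch without a peak in any list ran over 119 kb of the alpha array, chr5:140186575-140305795.

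In the alpha array 1 site was open in all 7 lists, at chr5:140305796-140306740. Its area under the curve, the caller's significance statistic summed over the peak, was 292 in the EV list, 278 in TAZ4SA, 733 in YAP5SA, 1416 in CAMTA1, 442 in TFE3, 1421 in TAZ-CAMTA1 and 1260 in YAP-TFE3. The CAMTA1 list and both fusion lists stood highest, and EV and TAZ4SA lowest. Within each list the strongest single peak of the site lay above 69.5% to 83.8% of that list's peaks by area. The other 6 alpha sites were weaker and none of them had an EV peak. One, chr5:140345888-140346480, had a peak in all lists but EV and TAZ-CAMTA1, with areas from 43.2 in TFE3 to 381 in YAP-TFE3. Another, chr5:140381571-140381763, had a peak in YAP5SA, CAMTA1, TAZ-CAMTA1 and YAP-TFE3, with areas of 31.0 to 101. The remaining 4 were in 1 list each.

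In the beta array 3 sites were open in all 7 lists. The 2 strongest were neighbours. At chr5:140557217-140557672 the area was 392 in EV, 436 in TAZ4SA, 445 in YAP5SA, 228 in CAMTA1, 207 in TFE3, 452 in TAZ-CAMTA1 and 543 in YAP-TFE3. At chr5:140557785-140558474 it was 497 in EV, 216 in TAZ4SA, 323 in YAP5SA, 366 in CAMTA1, 227 in TFE3, 330 in TAZ-CAMTA1 and 371 in YAP-TFE3. At the second site EV was the highest of the 7 lists, and at the first EV stood above CAMTA1 and TFE3. The third site, chr5:140515549-140515700, was narrow and weak, with areas from 53.7 in TFE3 to 141 in YAP5SA, and its summits lay within 55 bp of each other in the 7 lists.

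Some beta sites were missing from particular lists. A site next to the strong pair, chr5:140558599-140559116, had a peak in every list but TAZ-CAMTA1, with areas from 60.3 in YAP-TFE3 to 191 in YAP5SA. The site chr5:140554322-140554719 had a peak in EV, TAZ4SA, YAP5SA and CAMTA1 and in none of TFE3 and the fusions, with areas of 22.6 to 177. By contrast, 4 sites were held by CAMTA1 and TAZ-CAMTA1 alone, and all 4 were in the beta array. This pattern was picked out after the values were seen. Over the genome 1.9% of sites had it. The 4 sites were weak, with areas of 24.5 to 86.1 in the CAMTA1 list and 29.3 to 111 in the TAZ-CAMTA1 list. Of them, only chr5:140593338-140593533 had a −log10 p of 4 or more in both lists (4.07 in CAMTA1, 4.32 in TAZ-CAMTA1). Merging within 200 bp joined that site to chr5:140593647-140593746, another of the 4. It also joined chr5:140464435-140464534 to a site that EV, TAZ4SA and TFE3 held too. The pattern thus depended on the setting.

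The single site between the beta and gamma arrays, chr5:140699780-140700877, was strong in every list. Its area was 1140 in EV, 1232 in TAZ4SA, 1345 in YAP5SA, 1571 in CAMTA1, 816 in TFE3, 2279 in TAZ-CAMTA1 and 2552 in YAP-TFE3. The fusion lists were highest and TFE3 lowest. In each list the strongest single peak of the site lay above 78.8% to 88.3% of the peaks by area. For the peak of largest area in each list, the 7 summits fell within 22 bp of each other, and 5 of them at 1 base, 140700346. EV and TAZ4SA each had a further, smaller peak in the site, with summits at 140699969 and 140699954. In TAZ4SA that smaller peak had the higher −log10 p, 8.75 against 8.33.

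The gamma array held 6 of the 11 sites open in all 7 lists, and 3 of these were broad, which here means a merged width of at least 2000 bp. All 3 lay near the 3′ end of the array, in the last 50 kb of the span. In the annotation of the other build the C-type genes are the last genes of this array. The first broad site, chr5:140854969-140858022, was 3054 bp wide and had an area of 7895 in EV, 4522 in TAZ4SA, 8510 in YAP5SA, 13886 in CAMTA1, 6224 in TFE3, 13839 in TAZ-CAMTA1 and 14085 in YAP-TFE3. The second, chr5:140886549-140889563, was 3015 bp wide and had an area of 8598 in EV, 4610 in TAZ4SA, 8376 in YAP5SA, 16160 in CAMTA1, 8077 in TFE3, 14846 in TAZ-CAMTA1 and 15675 in YAP-TFE3. The third, chr5:140891725-140895158, was 3434 bp wide and had an area of 8158 in EV, 5425 in TAZ4SA, 8465 in YAP5SA, 13283 in CAMTA1, 7885 in TFE3, 12631 in TAZ-CAMTA1 and 13903 in YAP-TFE3. At all 3 the same lists were high, CAMTA1 and both fusions, and TAZ4SA was lowest. Where a list had several peaks in a site, as TAZ4SA did at each of the 3, their areas were summed.

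The broad sites held 49.3% to 60.03% of the covered bases and 79.6% to 87.5% of the summed area of the span, depending on the list. The share of bases was lowest in CAMTA1. Within each list the strongest single peak of each broad site lay above 97.0% to 99.5% of the peaks by area. The last 50 kb, 6.76% of the span, were covered to 12.4% in TAZ4SA, the lowest, and to 20.6% in CAMTA1, the highest. The rest of the span was covered to 0.524% to 1.18%. This stretch was set with the broad sites in view and holds all 3, so the contrast is a description. Over the genome 3.54% of sites were broad and in all 7 lists, and 3 of the 51 sites of the span were. So were 7 of 126 sites in the 740 kb just below the span and 10 of 165 in the 740 kb just above. The average over the genome was 3.14 such sites per 740 kb. The share of bases or area that such sites hold over the genome was not computed, so the shares in the span have no background.

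The other gamma sites in all 7 lists were narrower, and all 3 lay toward the 5′ end of the array. They are named here after their values were seen. At chr5:140762130-140762787 the area was 295 in EV, 266 in TAZ4SA, 568 in YAP5SA, 565 in CAMTA1, 444 in TFE3, 1077 in TAZ-CAMTA1 and 941 in YAP-TFE3, so that the fusions were highest. At chr5:140705666-140706292 the areas ran from 128 in YAP5SA to 753 in YAP-TFE3, and EV, at 456, stood above YAP5SA, TAZ4SA and TFE3. At chr5:140710198-140710570 they ran from 33.5 in TFE3 to 348 in CAMTA1. Of the 51 sites, 4 (7.84%) were in 6 lists, against 6.61% of the sites of the genome. Which list was missing from such sites was not counted over the genome. The 1 site that all lists but EV held, chr5:140713955-140714331, was also in the gamma array. Its area was 120 in TAZ4SA, 433 in YAP5SA, 488 in CAMTA1, 34.4 in TFE3, 244 in TAZ-CAMTA1 and 361 in YAP-TFE3. Of the 2 sites missing from TAZ4SA alone, chr5:140709958-140710065 in the gamma array had areas from 29.6 in TFE3 to 183 in CAMTA1, and chr5:140514707-140515246 in the beta array had areas from 25.7 in YAP5SA to 427 in YAP-TFE3. The site chr5:140875666-140875994, between the first and second broad sites, had a peak in TAZ4SA (259), YAP5SA (248.9), CAMTA1 (422) and TAZ-CAMTA1 (138) and none in EV, TFE3 or YAP-TFE3.

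**Figure D2:**
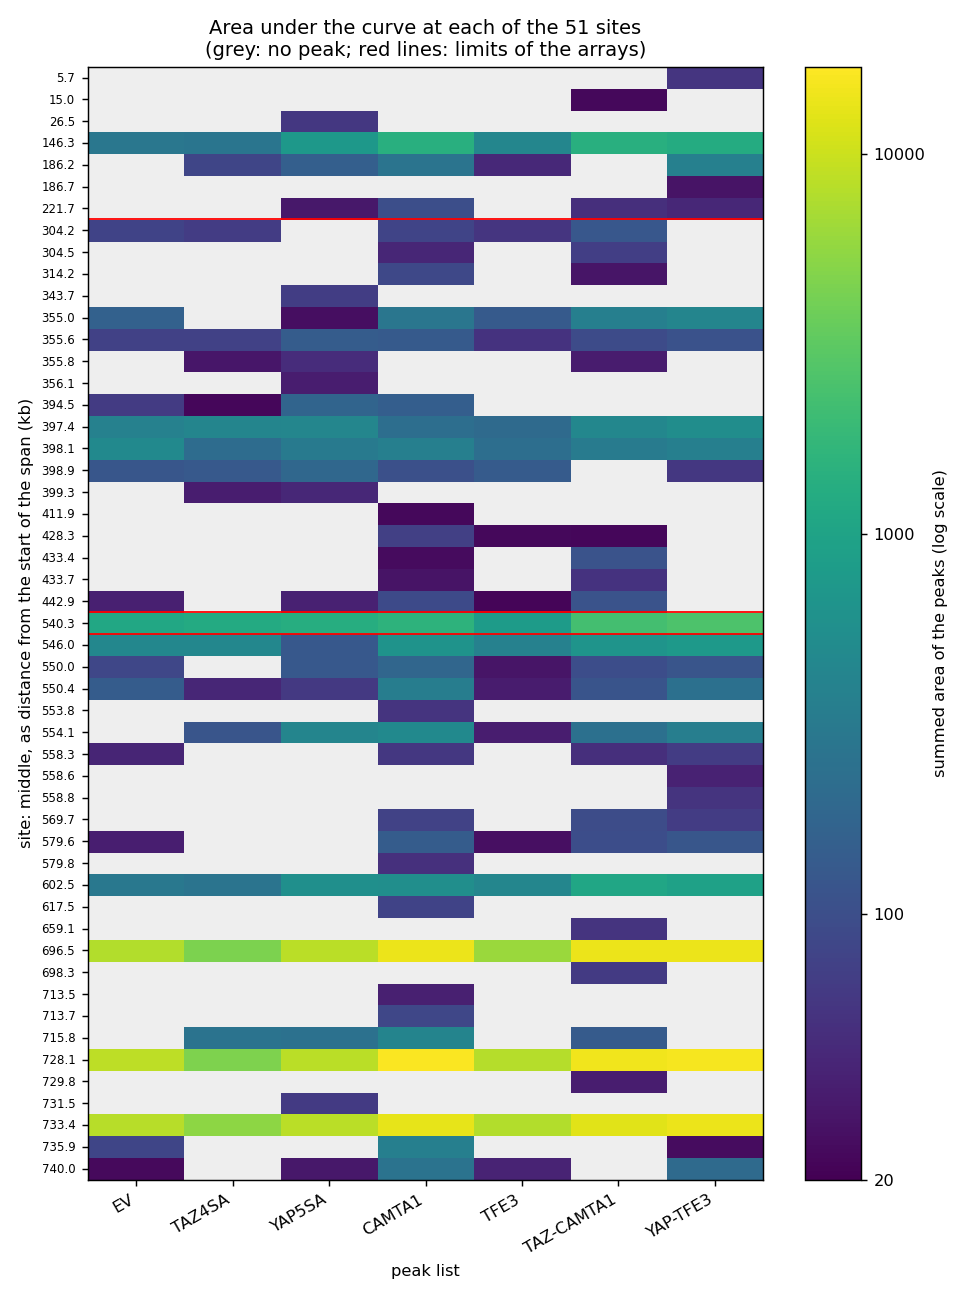
Summed area of the peaks (colour, log scale) at each of the 51 sites (rows, named by the distance of their middle from the start of the span in kb) in each list (columns), with grey where a list had no peak. The 3 broad sites near the bottom reach 4522 to 16160, and most sites missing from some lists are weak where present.

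Of the 51 sites, 11 (21.6%) were open in all 7 lists and 18 (35.3%) in just 1. Over the genome these shares were 16.2% and 42.3%. The Wilson 95% intervals of the shares in the span, which cover counting error only, ran from 12.5% to 34.6% and from 23.6% to 49.0%, and both hold the value of the genome. The sites of 1 list were small. Their areas did not exceed 84.7 and their median width was 90 bp, against medians of 181.5 bp for sites in 2 to 6 lists and 642.5 bp for the sites in all 7 lists that were not broad. Of the 18, CAMTA1 held 6, and YAP5SA, TAZ-CAMTA1 and YAP-TFE3 held 4 each. EV, TAZ4SA and TFE3, the lists with the fewest peaks over the genome, held 0. Of the 157188 such sites of the genome YAP5SA held the most, 39214, TAZ-CAMTA1 34769, YAP-TFE3 30003, CAMTA1 21019, TAZ4SA 18282, EV 12382 and TFE3 1519, so CAMTA1 led in the span and not over the genome. With 18 sites the counts per list are small. The strongest was chr5:140873631-140873741 (84.7) in CAMTA1, chr5:140503571-140503774 (68.6) in YAP5SA, chr5:140858222-140858301 (62.4) in TAZ-CAMTA1 and chr5:140165670-140165759 (56.6) in YAP-TFE3. No site was held by both fusions alone, and the share of the genome's sites with this pattern was not computed.

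Each list was then compared with EV. In the span, 5 of 28 TAZ4SA peaks (17.9%, Wilson 95% interval 7.88% to 35.6%) had no EV peak, against 33.9% of the whole list. For YAP5SA it was 10 of 31 (32.3%, 18.6% to 49.9%) against 47.9%, and for CAMTA1 17 of 40 (42.5%, 28.5% to 57.8%) against 46.8%. For TFE3 it was 3 of 26 (11.5%, 4.0% to 29.0%) against 27.6%. For TAZ-CAMTA1 it was 14 of 32 (43.8%, 28.2% to 60.7%) against 51.5%, and for YAP-TFE3 10 of 29 (34.5%, 19.9% to 52.7%) against 50.7%. The share in the span was the smaller in all 6 lists, and in all 6 the interval included the value of the whole list. The 6 comparisons share the EV list. Peaks without an EV peak were weaker: their median summit −log10 p was 3.67 to 5.03, against 4.10 to 5.97 for those with one, and it was the lower in each list.

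**Figure D3:**
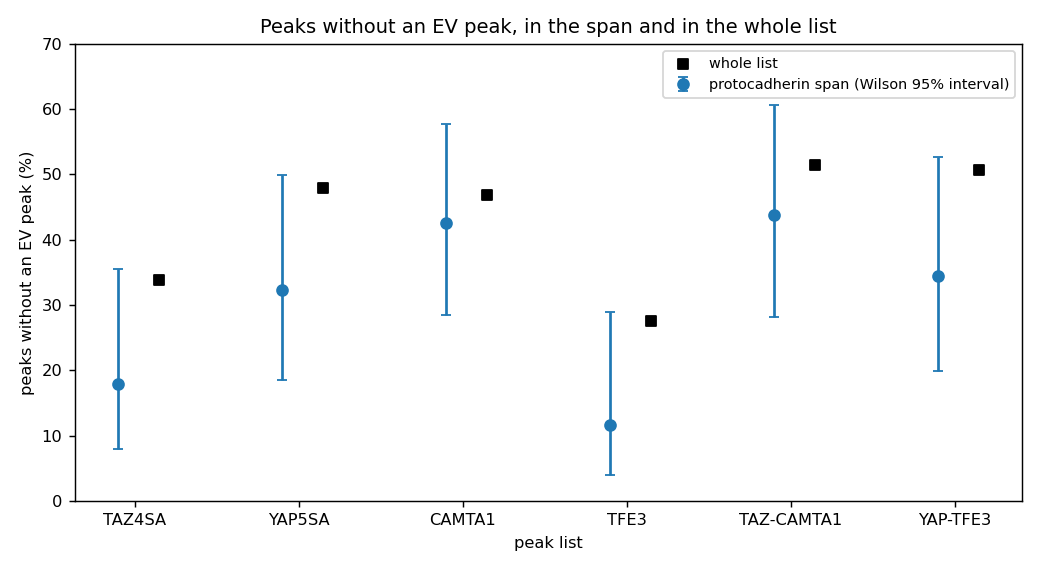
Percentage of each list's peaks lacking any overlap with EV, in the span (circles, with Wilson 95% intervals that cover counting error only) and in the whole list (squares). The circles range from 11.5% to 43.8%, and each lies below its square with the square inside the interval.

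In the other direction, EV peaks that a list lacked, CAMTA1 lacked 0 of the 25 EV peaks of the span, with a Wilson 95% interval up to 13.3%, while it lacked 20.2% of all EV peaks. TAZ4SA lacked 8 of the 25 (32%, 17.2% to 51.6%) against 49.5% of all EV peaks. YAP5SA lacked 5 (20%, 8.86% to 39.1%) against 28.9%, and TFE3 3 (12%, 4.17% to 29.96%) against 30.8%. TAZ-CAMTA1 lacked 4 (16%, 6.4% to 34.7%) against 14.4%, and YAP-TFE3 3 (12%, 4.17% to 29.96%) against 19%. The interval lay below the value of the whole EV list for CAMTA1 and, narrowly, for TFE3, and included it for the other 4. For TFE3 the share was 28.6% among summits with a −log10 p of 4 or more. With an overlap of 50% of both peaks required in place of 1 bp, CAMTA1 lacked 28% and TAZ4SA 56% of the 25. With equal numbers of peaks per list CAMTA1 lacked 4.35% or 4.17%, so the count of 0 did not hold under these settings. Shares of the whole EV list were not computed for the alternatives. The whole-list shares above, for all peaks at 1 bp of overlap, are therefore not their background.

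At the sites in all 7 lists the areas could be set against EV site by site. These ratios compare lists of unknown depth, and the same ratio over all such sites of the genome (60373) is given beside them. The median ratio over the 11 sites was 0.902 for TAZ4SA (genome 0.639), 1.08 for YAP5SA (1.32), 1.76 for CAMTA1 (2.07), 0.788 for TFE3 (1.07), 1.55 for TAZ-CAMTA1 (2.40) and 1.70 for YAP-TFE3 (2.45). Only for TAZ4SA was the median in the span the higher. At the 3 broad sites the ratio was 0.536 to 0.665 for TAZ4SA, 0.974 to 1.08 for YAP5SA, 1.63 to 1.88 for CAMTA1, 0.788 to 0.967 for TFE3, 1.55 to 1.75 for TAZ-CAMTA1 and 1.70 to 1.82 for YAP-TFE3. The medians over the 13166 broad sites of the genome were 0.644, 1.18, 1.61, 0.885, 1.83 and 1.95 in the same order.

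The sites that were not broad varied more. The alpha site was 4.84 times the EV area in CAMTA1, 4.86 times in TAZ-CAMTA1 and 4.31 times in YAP-TFE3, above 84.8%, 84.1% and 77.6% of the sites of the genome for these lists. The second of the strong beta pair went the other way. Its ratio was below 1 in all 6 lists, from 0.434 in TAZ4SA to 0.746 in YAP-TFE3, and it lay above 1.47% of the sites of the genome in TAZ-CAMTA1, 2.68% in CAMTA1, 2.73% in YAP-TFE3, 5.10% in TFE3, 9.81% in YAP5SA and 30.6% in TAZ4SA. At the first of the pair the ratio was 0.582 in CAMTA1 and 0.528 in TFE3 and above 1 in the other 4 lists. The gamma site at chr5:140705666-140706292 was 0.280 of EV in YAP5SA, above 2.26% of the sites of the genome.

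**Figure D4:**
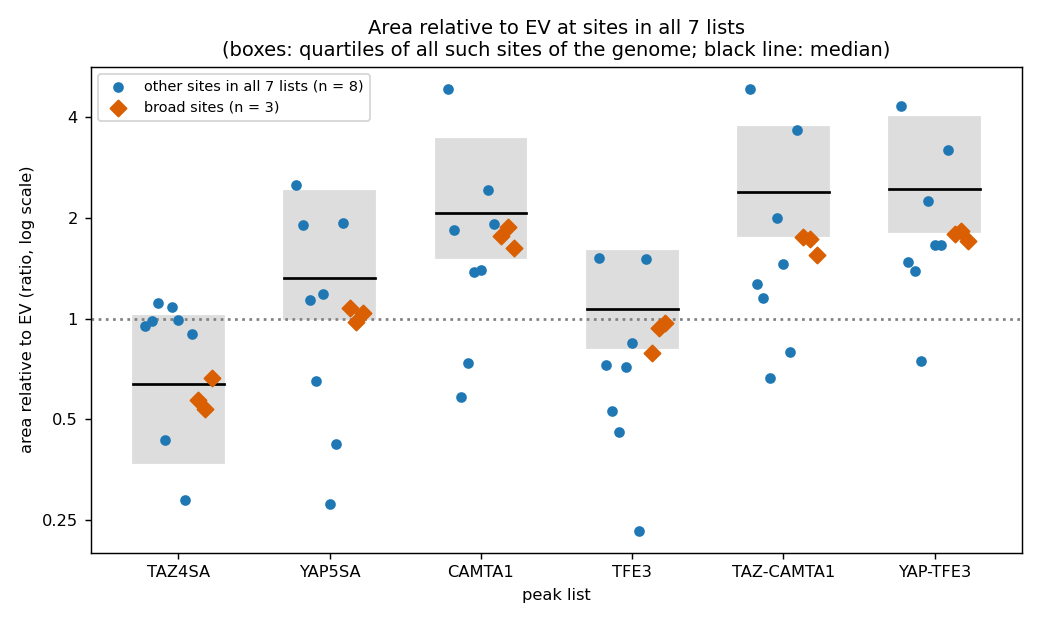
Area relative to EV (log axis) at the 11 sites in all 7 lists, with diamonds for the 3 broad sites, circles for the other 8, and grey boxes and black lines for the quartiles and median over all such sites of the genome. The diamonds of a list lie close together (1.63 to 1.88 for CAMTA1), while the circles spread widely (0.582 to 4.84 for CAMTA1).

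How alike the lists were in the span was measured by the Jaccard index, the bases covered by both lists of a pair over the bases covered by either. For the 21 pairs it lay between 0.504, for TAZ4SA with CAMTA1, and 0.766, for TFE3 with YAP-TFE3. The index was 0.764 for CAMTA1 with YAP-TFE3, 0.760 for CAMTA1 with TAZ-CAMTA1 and 0.752 for the fusions with each other. The TFE3 and YAP-TFE3 pair ranked 1 of 21 in the span and 6 over the genome, where its index was 0.630. The fusion pair ranked 4 in the span and 1 over the genome, at 0.681. This order depended on the setting. The fusion pair ranked 1 in the span among summits with a −log10 p of 4 or more (0.790, against 0.730 for TFE3 with YAP-TFE3) and with equal numbers of peaks by area (0.811 against 0.784). The first place went to CAMTA1 with YAP-TFE3 at a −log10 p of 5 or more (0.844) and to EV with TFE3 for windows around the summits (0.615). The 6 pairs with TAZ4SA all ranked between 15 and 21 in the span and between 16 and 21 over the genome, so this was not particular to the span.

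All 21 indices were higher in the span than over the genome, by 0.0348 to 0.159. Without the 3 broad sites, an alternative chosen after seeing the data, all were lower, between 0.372 and 0.662. The broad sites were defined by a peak in all 7 lists, so this drop is a description. With the 13166 broad sites of the genome left out as well, the indices of the genome lay between 0.279 and 0.599. The span was then higher for 19 of 21 pairs. The exceptions were CAMTA1 with TFE3 (0.534 in the span, 0.564 over the genome) and the fusions with each other (0.583 and 0.599).

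**Figure D5:**
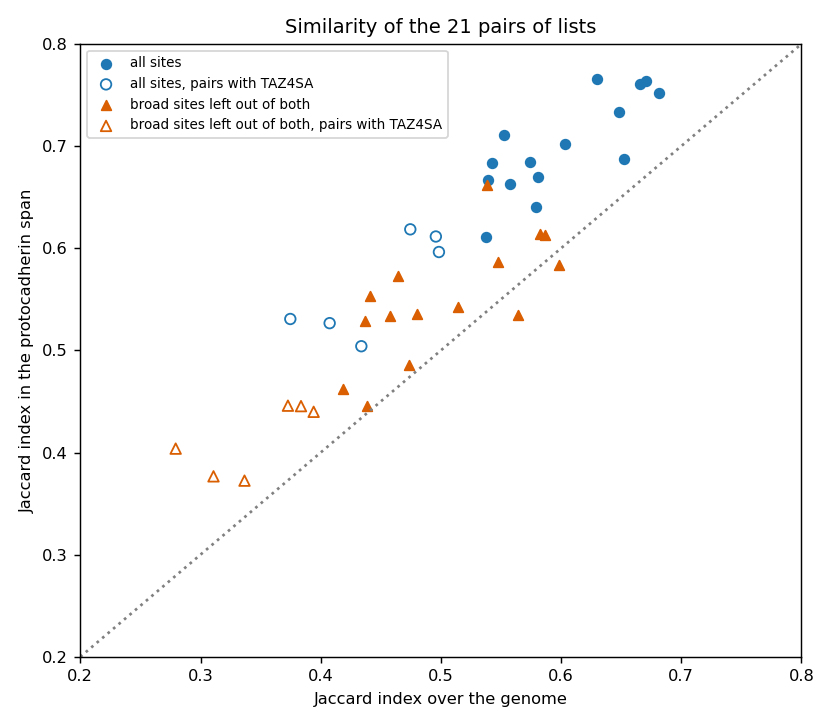
Jaccard index of the 21 pairs of lists in the span against the index over the genome, over all sites (circles) and with the broad sites left out of both (triangles), and open symbols for pairs with TAZ4SA. All circles (0.504 to 0.766) lie above the dotted line of equal values, and so do 19 of 21 triangles.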

How the data were processed

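ATAC-seq was performed on SW872 cells in 20 libraries. The study's methods name NGmerge for trimming, BWA-MEM for alignment and Genrich 1.0.8, in ATAC-seq mode, for peak calling, with PCR duplicates and blacklisted hg19 regions removed. The submitters' processing notes name Bowtie 0.12.2 and a mouse build, which the lists' human coordinates do not bear out. The methods describe calling per replicate, whereas 1 list per vector was deposited. How libraries were combined is not given in the sources used here.

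The signal the authors deposited for a peak is the area under the curve, beside a −log10 p at the summit, a score and the summit's offset from the peak's start (another deposited number). Area, p and summit were used, and the deposited q-value was not. Positions count from 1.

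Overlapping or touching peaks of the 7 lists were merged into sites with Python 3.11.15, numpy 2.4.6 and pandas 2.3.3. A peak counted as shared at 1 bp of overlap. Wilson 95% intervals (scipy 1.17.1) cover counting error only. The overlap and merging functions were tested on simulated data. Read depth is unknown, so no precision beyond peak counts can be given. Values are given for the 3 sites of each array or segment in all 7 lists with the largest median area, the strongest site of each list alone, and the sites with the largest smallest-area that are missing from EV alone, from TAZ4SA alone, or held by the fusions alone. The members and lists were chosen with earlier results of these data known. Gene names, gene order and promoter sequences came from RefSeq (GRCh38.p14). No genome of the lists' build was used, so promoters were not matched to peaks. Alternatives were peaks with a −log10 p of 4 or more, or of 5 or more, equal numbers of peaks per list (152702) by −log10 p or by area, windows reaching 250 bp on either side of the summit, an overlap of 50%, merging within 200 bp, and leaving out the broad sites.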

Additional observations from a re-analysis of the deposited data

How the results depend on the processing

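Each vector has 1 list of unknown depth from an unstated combination of libraries, so the spread between libraries is not measured and small counts limit every share. No paired analysis was possible because per-library values are not part of the lists, and leaving out single libraries was not run for the same reason. Peaks at gene starts were not counted, since no annotation of the lists' build was used. Of 161 recomputed main values, 101 stayed within 1.5 times the count given or inside the Wilson interval of the share or index given. The other 60 did not. Those intervals are wide for shares: within them the share of EV peaks lacking in TFE3 went from 12% to 28.6% at a −log10 p of 4 or more, that for YAP-TFE3 from 12% to 25% with equal numbers by area, and that for YAP5SA from 20% to 9.09% at 5 or more and 33.3% with equal numbers by area. The causes of the moves were not tested.

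When summits needed a −log10 p of 5 or more, the peaks in the span fell to 11 in EV, 16 in TAZ4SA, 14 in YAP5SA, 16 in CAMTA1, 9 in TFE3, 12 in TAZ-CAMTA1 and 15 in YAP-TFE3, the sites in all 7 lists to 6, and the alpha, beta and gamma sites to 2, 5 and 11. The share of EV peaks lacking in the list was then 9.09% for TAZ4SA and 0% for TAZ-CAMTA1 and YAP-TFE3, and the share of TAZ-CAMTA1 peaks without an EV peak 25%. At 4 or more TFE3 had 14 peaks, 0% of them without an EV peak, and the alpha array 4 sites. With equal numbers of peaks the alpha array had 3 sites by either ranking, and the share of TAZ-CAMTA1 peaks without an EV peak was 27.3% by −log10 p and 19.0% by area. Ranked by −log10 p, EV had 23 peaks in the span, YAP5SA 21, TAZ-CAMTA1 22 and YAP-TFE3 20. By area EV had 24, YAP5SA 21, TAZ-CAMTA1 21 and YAP-TFE3 19. YAP5SA and both fusions thus stood below EV under both rankings and above it among all deposited peaks. CAMTA1, TAZ4SA and TFE3 stood above EV in each case. Windows around summits or merging within 200 bp gave 11 beta sites, and the merging 15 gamma sites.

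With an overlap of 50% of both peaks the share without an EV peak was 60.7% for TAZ4SA, 61.3% for YAP5SA and 38.5% for TFE3. The share of EV peaks lacking was 56% for TAZ4SA, 52% for YAP5SA, 28% for CAMTA1, 36% for TFE3 and TAZ-CAMTA1, and 40% for YAP-TFE3. Shares of the whole lists were not computed under any alternative setting, so the shares in the span have no background there.

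The Jaccard indices of CAMTA1 with TAZ-CAMTA1, TAZ4SA with TAZ-CAMTA1, TFE3 with YAP-TFE3 and YAP5SA with YAP-TFE3 (0.760, 0.531, 0.766 and 0.663) became 0.774, 0.552, 0.730 and 0.678 at a −log10 p of at least 4, and 0.836, 0.568, 0.737 and 0.671 at 5. With equal numbers they were 0.781, 0.555, 0.798 and 0.694 by −log10 p, and 0.780, 0.558, 0.784 and 0.681 by area. With windows they were 0.541, 0.305, 0.493 and 0.419, and without the broad sites 0.614, 0.404, 0.662 and 0.533.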
